A study of Mus musculus with 8 samples.

Results

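The genes described here are 9 that encode proteins used to mark fibroblasts at the cell surface: Thy1, Cd44, Pdgfra, Pdgfrb, Cdh11, Eng, Nt5e, Ly6a and Anxa1. They were taken by name, with earlier results of these data known, and are 9 of the 23389 gene symbols that every table lists. Each was compared across 8 RNA-seq libraries in 4 groups of 2, and each induced pluripotent stem (iPS) clone was also given as a percent of the mean of the mouse embryonic fibroblasts (MEF). The 3F+IL6 group held clones reprogrammed with Oct4, Klf4 and Sox2 and treated with the cytokine IL6 at 10 ng/mL, and the 4F group held clones made with 4 factors and no IL6 in their labels. Both kinds of clone and the MEF had the BALB/c background. The ES group held the D3-GFP embryonic stem cell line on the 129S2/SvPas background, so a difference from ES cells cannot be told apart from a difference between strains. Per the labels the clones of a kind arose independently and the MEF and ES libraries were biological replicates, with 2 in each group. Whether any culture held feeder fibroblasts is not given in the sources used here.

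Fibroblasts are recognised by proteins on their surface, none of which belongs to fibroblasts alone. Thy1, Ly6a (Sca-1) and Nt5e (CD73) are held in the membrane by a glycosylphosphatidylinositol (GPI) anchor. Pdgfra and Pdgfrb are receptor tyrosine kinases for platelet-derived growth factors, and Eng (endoglin, CD105) is a co-receptor for ligands of the TGF-beta family. Cd44 binds hyaluronan in the matrix, and Cdh11 is a cadherin by which mesenchymal cells hold each other. Anxa1 is a calcium-dependent membrane-binding protein that is also found outside the cell. During reprogramming, loss of fibroblast surface proteins such as THY1 is used to follow cells that leave the fibroblast state.

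Cd44 kept the smallest share of its MEF level in every clone, while Eng, like Nt5e, was above its MEF level in every clone. To set a gene of each kind side by side, for Cd44 and Eng the 250 bases before the RefSeq transcript start (build GRCm38.p6) are shown 5′ to 3′ on the gene's strand, with every CpG in capitals. The Cd44 stretch is chr2:102901666-102901915 on the minus strand and the Eng stretch is chr2:32646345-32646594 on the plus strand.
Cd44: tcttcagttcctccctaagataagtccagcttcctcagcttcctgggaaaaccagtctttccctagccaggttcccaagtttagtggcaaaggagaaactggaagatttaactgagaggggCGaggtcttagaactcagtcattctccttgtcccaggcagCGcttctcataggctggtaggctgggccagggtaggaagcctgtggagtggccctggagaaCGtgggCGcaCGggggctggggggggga
Eng: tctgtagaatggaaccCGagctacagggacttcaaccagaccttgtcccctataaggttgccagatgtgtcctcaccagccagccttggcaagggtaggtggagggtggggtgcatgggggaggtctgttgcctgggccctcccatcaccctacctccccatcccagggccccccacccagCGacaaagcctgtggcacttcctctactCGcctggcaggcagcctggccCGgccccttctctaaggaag
Neither stretch overlaps an exon of the GENCODE M21 annotation. The Cd44 stretch has 56.4% G and C with 5 CpG, and the Eng stretch has 62.4% with 4 CpG, against medians of 52.4% and 6 CpG over 32851 promoters of that table. Neither holds, on either strand, the letters TGANTCA (AP-1), GGAATG (TEAD), GGGCGG (SP1) or TATAAA (bound by TBP), which stand in 6.7%, 12.6%, 32.7% and 12.4% of those promoters. The promoter table held 5 of the 9 members. The Pdgfra stretch has 4 CpG and likewise none of these letters. The Nt5e stretch has 21 CpG and 4 SP1 matches, and the Anxa1 stretch has 2 CpG, 1 TEAD match and 1 TBP match. Unlike those of Cd44, Eng and Pdgfra, the Nt5e and Anxa1 stretches overlap GENCODE M21 exons. Their counts are therefore not of upstream sequence alone. The matches are descriptions of these letters and not of binding.

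Values are in RPKM (reads scaled by gene length and library size), which is a level per gene length and so allows genes to be compared with each other. The depth estimated from the tables was 11400000 to 17700000 reads per library. Across the genes of a pair of replicates, Pearson's r was 0.9841 in 3F+IL6 and between 0.9935 and 0.9964 in the other groups. The summed level of 8 pluripotency markers was 6.52 to 7.97 RPKM in MEF, 4659 to 4787 in ES, 4663 to 5020 in 3F+IL6 and 5552 to 5697 in 4F, which fits the labels. In bulk RNA, fewer cells of a type and less RNA per cell cannot be told apart, which holds for every level below. Among the marker lists of other cells, the endothelial genes Cdh5 and Emcn and the blood cell genes Ptprc, Itgam and Csf1r were under 1 RPKM in every library. These genes are named after their values were seen, and other genes of both lists were above 1 RPKM. The summed level of the blood cell markers was 3.40 to 3.73 RPKM in MEF, 15.3 to 16.8 in ES and 22.4 to 35.4 in the clones, most of it from Cd68, a lysosomal protein of macrophages, at 27.6 ± 9.60 in 3F+IL6, 32.4 ± 1.23 in 4F, 13.9 ± 1.19 in ES and 2.79 ± 0.0763 in MEF (SD, n = 2). The summed level of 7 endothelial markers was 9.05 to 11.1 RPKM in the clones, 2.06 to 2.21 in MEF and 4.97 to 5.02 in ES.

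Of the 9 members, 6 were highest in MEF and 3 were not. Thy1, Cd44, Pdgfra, Pdgfrb, Cdh11 and Anxa1 had the same order of group means: ES lowest, then 4F, then 3F+IL6, then MEF. How many of all genes tested were highest in MEF, or had this order, was not counted. In all 6 the 4F and 3F+IL6 means did not differ by the test, and the other neighbours in the order did. Eng was highest in 4F, and Nt5e and Ly6a were highest in 3F+IL6. Eng and Nt5e were thus not higher in MEF than in any pluripotent group, and Ly6a was higher in MEF than in ES cells alone.

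**Figure D1:**
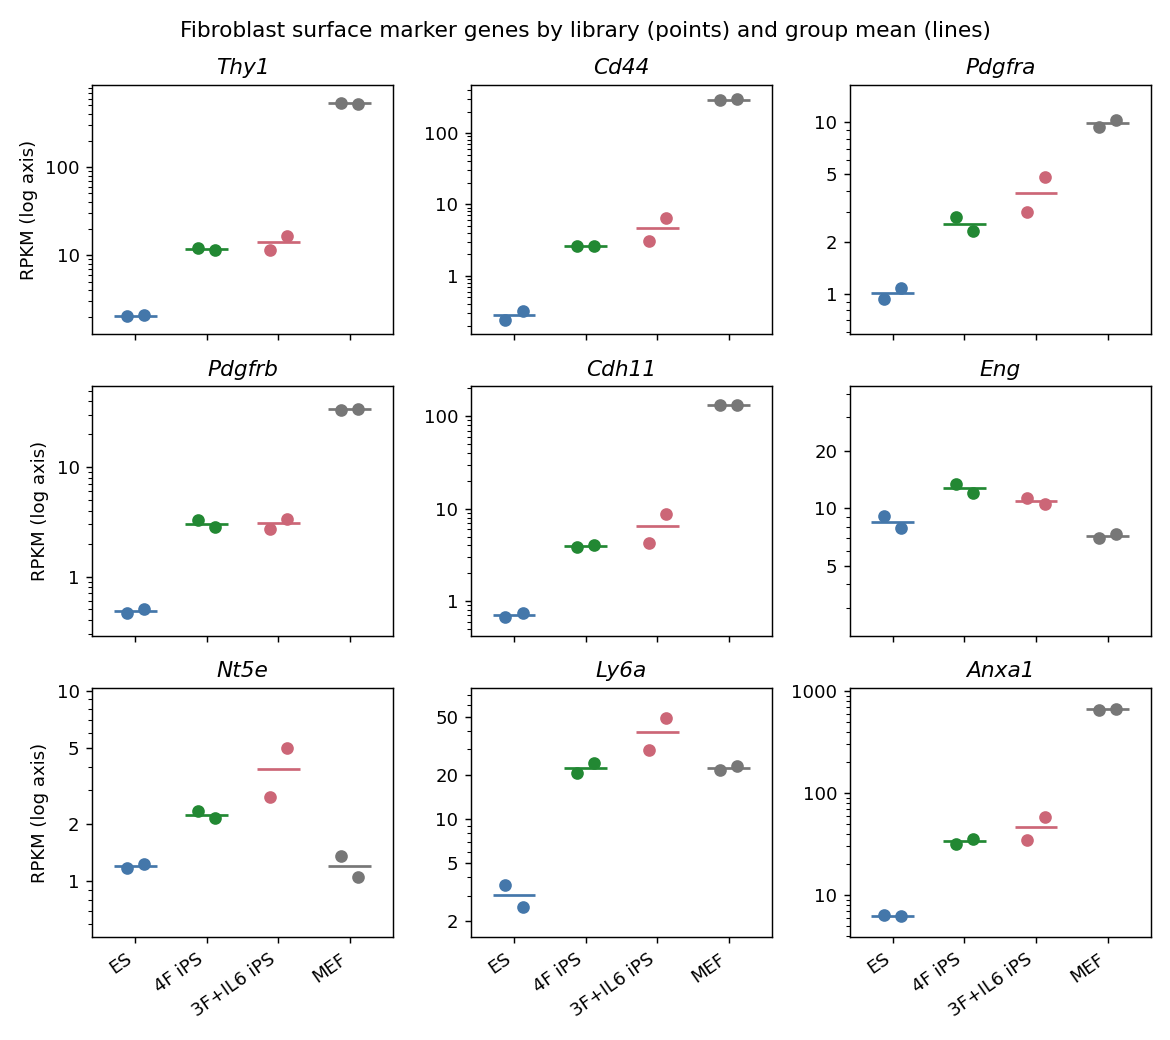
RPKM (log axis, a scale of its own in each panel) of the 9 fibroblast surface marker genes in every library. Points are libraries and lines are group means (n = 2). In 6 panels the MEF points lie above all others, while Eng, Nt5e and Ly6a have clone points above MEF.

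Among the GPI-anchored members, Thy1 had a high MEF level and a low but measurable level in the clones. Thy1 (chr9:44043384-44048579) read 535 and 524 RPKM in MEF, 11.4 and 16.5 in 3F+IL6, 11.9 and 11.3 in 4F, and 2.02 and 2.08 in ES. No groups overlapped except the clone kinds, whose values interleave. The log2 difference from MEF was -5.17 (SE 0.14, adjusted p = 1.4e-07) in 3F+IL6 and -5.39 in 4F. Beside ES cells Thy1 was higher by 2.27 on the log2 scale in 3F+IL6 and by 2.05 in 4F.

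Ly6a, which marks many mesenchymal and stem cell types in the mouse, was as high in the clones as in the fibroblasts. Ly6a (chr15:74994877-74998031) read 21.7 and 22.9 RPKM in MEF, 20.6 and 23.9 in 4F, 29.6 and 49.0 in 3F+IL6, and 3.57 and 2.5 in ES. The 4F values enclosed those of MEF, both 3F+IL6 clones lay above them, and ES lay below all. The log2 difference between 4F and MEF was -0.01 (SE 0.23, 95% interval -0.55 to 0.54, adjusted p = 0.98). Between 3F+IL6 and MEF it was 0.75 (SE 0.23, adjusted p = 0.019), a call that was lost without 3F+IL6 clone 2 (0.39) or without either MEF library (0.71 and 0.78). Against ES cells the difference in log2(RPKM + 1) was larger for Ly6a than for any other member, at 3.29 in 3F+IL6 and 2.54 in 4F. That ranking rests on the scale, which understates the change of low genes. Mean Cd44 was 0.283 RPKM in ES, 4.74 in 3F+IL6 and 2.61 in 4F, beside 3.03, 39.3 and 22.3 for Ly6a. Genes of the Ly6 family have near-identical copies, and how reads shared between them were counted is not given in the sources used here, so the Ly6a level is uncertain.

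Other genes of the Ly6 family took the same side as Ly6a in part. Of 10 listed, 5 could be tested, and 4 were higher in 3F+IL6 than in MEF and 1 was lower, beside 49.4% and 32.6% of all genes tested. In 4F 3 were higher, 1 was lower and 1 was not called, where 49.2% of all genes were higher and 34.4% lower. The same shares apply to the counts against MEF of the lists below, in 3F+IL6 and in 4F. Ly6e, a GPI-anchored family member that is expressed widely, was at 165 ± 16.7 RPKM in 3F+IL6, 160 ± 8.89 in 4F, 94.0 ± 3.87 in MEF and 19.5 ± 0.365 in ES (SD, n = 2). Ly6c1 read 4.86 ± 0.742 RPKM in 3F+IL6, 2.44 ± 0.591 in 4F, 2.56 ± 0.0121 in MEF and 0.101 ± 0.0894 in ES. Ly6k was also higher in both kinds of clone than in MEF but, unlike Ly6a, was highest in ES. It was at 0.820 ± 0.308 RPKM in 3F+IL6, 2.10 ± 0.248 in 4F, 6.83 ± 0.00725 in ES and 0 in MEF. The 1 that was lower in the clones was Plaur, the urokinase receptor, with a log2 difference of -4.07 in 3F+IL6. The direction was therefore not common to the family.

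Nt5e, the ecto-enzyme that turns extracellular AMP into adenosine, was low in every library. Nt5e (chr9:88327197-88372092) read 1.36 and 1.06 RPKM in MEF, 1.17 and 1.23 in ES, 2.33 and 2.15 in 4F, and 2.77 and 4.98 in 3F+IL6. The MEF values enclosed those of ES, and all 4 clones lay above both. The 3F+IL6 clones were higher than MEF by 1.11 (SE 0.20, adjusted p = 0.0016). The 4F clones were higher by 0.56 (SE 0.20, adjusted p = 0.037), and this call was lost when any 1 library of ES, 4F or MEF was left out and under quantile normalization. On the log2(RPKM + 1) scale the change of so low a gene is understated.

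The other genes of adenosine handling that could be tested were 4 of 8. In both kinds of clone 3 were higher than in MEF and 1 was lower. Slc29a1, a nucleoside transporter, was higher by 1.52 in 3F+IL6, Ada, which breaks adenosine down, by 1.04, and Entpd2, which acts on ATP before Nt5e, by 0.92. Adora2b, an adenosine receptor, fell by 2.78 on the log2 scale relative to MEF in 3F+IL6.

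The 2 PDGF receptors differed in how much of the MEF level the clones held. Pdgfra (chr5:75152292-75198215) read 9.45 and 10.3 RPKM in MEF, 3.00 and 4.77 in 3F+IL6, 2.80 and 2.31 in 4F, and 0.928 and 1.08 in ES. Pdgfrb (chr18:61045150-61085061) read 33.5 and 34.2 RPKM in MEF, 2.75 and 3.37 in 3F+IL6, 3.27 and 2.83 in 4F, and 0.461 and 0.508 in ES. For both receptors the 4 clones lay between ES and MEF with no overlap. The Pdgfra log2 difference from MEF was -1.18 (SE 0.18, adjusted p = 0.00051) in 3F+IL6 and -1.62 in 4F, and that of Pdgfrb was -3.11 in each. Pdgfra was thus at 39.3% ± 12.6 of MEF in 3F+IL6 and 25.8% ± 3.49 in 4F, and Pdgfrb at 9.03% ± 1.30 and 9.0% ± 0.922 (SD, n = 2). The MEF level of Pdgfra was itself the lowest of the 6 members that were highest in MEF.

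All 4 genes for PDGF ligands were tested. In both kinds of clone 1 was higher than in MEF, 2 were lower and 1 was not called. In 3F+IL6 the log2 difference was -2.66 for Pdgfc and -2.95 for Pdgfd, the ligands that are activated by cleavage, and 0.93 for Pdgfb. Pdgfa, a ligand for Pdgfra, was at 23.2 ± 6.90 RPKM in 3F+IL6, 26.8 ± 0.110 in 4F, 23.1 ± 0.633 in MEF and 29.3 ± 1.74 in ES.

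Eng had its lowest values in MEF. Eng (chr2:32646595-32682669) read 6.97 and 7.32 RPKM in MEF, 9.13 and 7.94 in ES, 11.4 and 10.6 in 3F+IL6, and 13.5 and 12.1 in 4F. The groups did not overlap, with MEF lowest, then ES, then 3F+IL6, then 4F. The log2 difference from MEF was 0.56 (SE 0.09, adjusted p = 0.001) in 3F+IL6 and 0.76 (SE 0.09, adjusted p = 0.00019) in 4F, and both calls held in every alternative run. From ES to MEF the difference was 0.22 (adjusted p = 0.06), and it was called without ES 2 (0.32), without either 3F+IL6 clone, with array weights or in a fit of those 4 samples alone. The genes beside Eng in TGF-beta signalling did not share its direction: of 9 listed 7 were tested, and 6 were lower and 0 higher than MEF in each kind of clone. Tgfb3, a ligand, had a log2 difference of -5.99 in 3F+IL6, Tgfb1 one of -3.32 and the receptor Tgfbr2 one of -2.32. Acvrl1, a type I receptor that acts with endoglin, was the 1 not called in 3F+IL6 (0.08, adjusted p = 0.58), and is named after its values were seen. Because Eng also marks endothelial cells, the endothelial sums above are to be read beside it: they were likewise higher in the clones than in MEF. Of the 5 endothelial genes tested, Vwf, Tek, Tie1 and Cldn5 were higher than MEF in both kinds of clone, and Kdr was lower (log2 difference -1.35 in 3F+IL6 and -1.39 in 4F), these being named after their values were seen. Their part in the Eng result was not tested.

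Cd44 and Cdh11, the members that hold cells to matrix and to each other, were high in MEF and kept a small percent of that level in the clones. Cd44 (chr2:102811141-102901665) read 291 and 296 RPKM in MEF, 3.05 and 6.43 in 3F+IL6, 2.58 and 2.64 in 4F, and 0.242 and 0.324 in ES. Cdh11 (chr8:102632095-102785642) read 131.2 and 131.2 RPKM in MEF, 4.29 and 8.70 in 3F+IL6, 3.82 and 4.04 in 4F, and 0.676 and 0.740 in ES. In both genes 3F+IL6 clone 2 stood above the other 3 clones, which lay close together. The log2 difference from MEF was -5.75 (SE 0.25, adjusted p = 7.7e-07) for Cd44 in 3F+IL6 and -6.35 in 4F. For Cdh11 it was -4.21 and -4.75. The lowest level of any member, Cd44 in ES 1, stood for an estimated 21 reads and that in MEF 1 for 28262.

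Partners of these adhesion proteins were partly on their side. Of 6 genes for hyaluronan synthesis and for linking Cd44 to actin, 4 were tested, and in each kind of clone 2 were lower than in MEF and 1 was higher. In 3F+IL6 Has2, a hyaluronan synthase, had a log2 difference of -4.06, the linker Msn one of -3.15 and the linker Ezr one of 1.53. Of the 10 cadherins listed 6 were tested, and 4 were lower and 2 higher in each kind of clone. Cdh2 (N-cadherin) had a log2 difference of -4.63 in 3F+IL6, and Cdh1 (E-cadherin, the epithelial and pluripotent cell cadherin) had one of 6.71.

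Anxa1 had the highest MEF level of the 9. Anxa1 (chr19:20373428-20390944) read 656 and 669 RPKM in MEF, 34.5 and 58.8 in 3F+IL6, 31.9 and 35.4 in 4F, and 6.34 and 6.18 in ES. Clone 2 of 3F+IL6 was again above the other 3 clones, and ES lay below all clones. The log2 difference from MEF was -3.85 (SE 0.21, adjusted p = 2.4e-06) in 3F+IL6, -4.26 in 4F and -6.51 in ES. Of 10 genes listed for other annexins and the receptors of Anxa1, 8 were tested, and in each of the 3 pluripotent groups 7 were lower and 1 was higher than in MEF. Anxa3 had a log2 difference of -5.61 in 3F+IL6, Anxa5 one of -3.78 and Anxa6 one of -2.31, and the 1 that was higher was Anxa11, by 1.62.

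Counted together against MEF, 3 members were higher in 3F+IL6, where 49.4% of the 13200 genes tested were, and 6 were lower, where 32.6% of all genes were. In 4F 2 were higher (49.2% of all genes), 6 were lower (34.4%) and Ly6a was not called. In ES 0 were higher by limma (49.7% of all genes), with 1 higher at an unadjusted p under 0.05 (50.1% of all genes), and 7 were lower (32% of all genes). The median log2 difference of the 9 members was -3.11 in 3F+IL6, -3.11 in 4F and -4.55 in ES, beside medians of 0.26, 0.25 and 0.27 over all genes tested. These comparisons share the MEF libraries. Under median centring the medians over all genes fell to 0.15, 0.17 and 0.18, and no member changed direction with a call.

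As a percent of MEF, the clones divided the members into 3 ranges. Cd44, Thy1, Cdh11, Anxa1 and Pdgfrb were under 10% in all 4 clones. Cd44 was at 1.04% and 2.19% in 3F+IL6 and at 0.881% and 0.898% in 4F. Thy1 was at 2.15% and 3.11% in 3F+IL6 and at 2.25% and 2.14% in 4F. Those 2 genes kept the least.
Cdh11 was at 3.27% and 6.63% in 3F+IL6 and at 2.91% and 3.08% in 4F. Anxa1 was at 5.21% and 8.87% in 3F+IL6 and at 4.82% and 5.34% in 4F. Pdgfrb was at 8.11% and 9.96% in 3F+IL6 and at 9.66% and 8.35% in 4F, with the kinds interleaved.
Pdgfra alone was between 10% and 90%, at 30.3% and 48.2% in 3F+IL6 and at 28.3% and 23.4% in 4F. Ly6a was at 133% and 219% in 3F+IL6 and at 92.4% and 107% in 4F. Eng was at 159% and 149% in 3F+IL6 and at 188% and 169% in 4F, and Nt5e at 229% and 412% and at 193% and 178%. The median over the 9 members reached 8.11% and 9.96% with 3F+IL6, 9.66% and 8.35% with 4F, but 1.36% and 1.5% in the ES libraries. No test was applied to percentages.

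**Figure D2:**
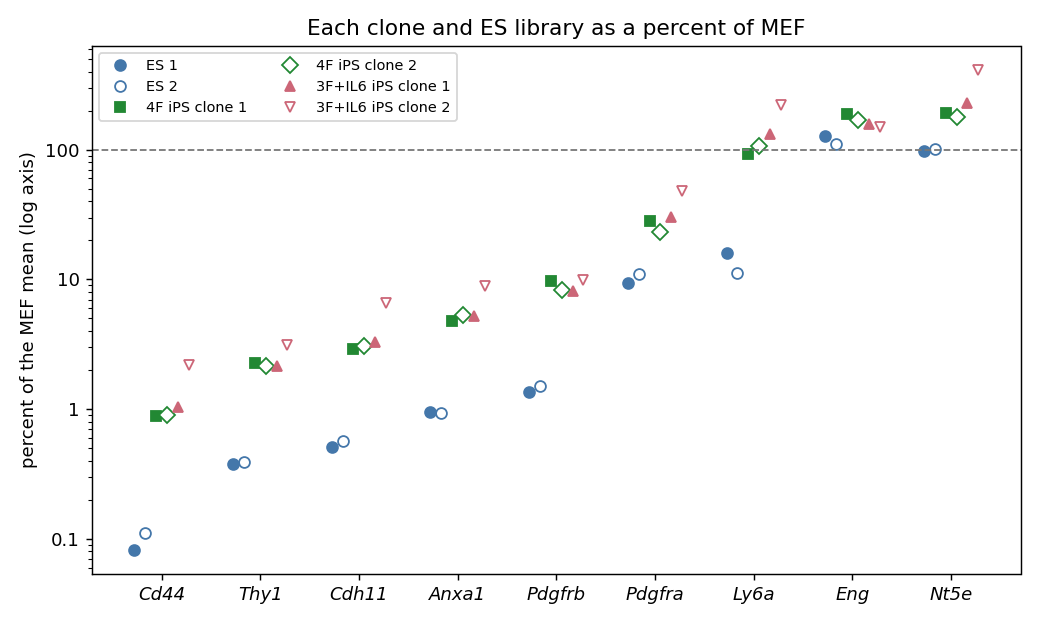
Each iPS clone and ES library as a percent of the MEF mean (log axis) for the 9 genes, with 100% marked. Cd44 lies lowest, near 1% in the 4F clones. Above 100% lie Eng in every clone and ES library, Nt5e in every clone and ES 2, and Ly6a in both 3F+IL6 clones and 4F clone 2.

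ES cells gave the background of each marker in pluripotent cells of another strain, and all 9 members were above it in both kinds of clone. Higher calls covered 9 of 9 members in 3F+IL6 against ES, where 33.1% of all genes were called higher and 30.3% lower, and 9 of 9 in 4F, where 33.7% were higher and 33.5% lower. The median log2 difference of the members was 2.07 in 3F+IL6 and 1.49 in 4F, beside 0.01 and 0 over all genes. The smallest differences were those of Eng, at 0.33 (adjusted p = 0.018) in 3F+IL6 and 0.53 in 4F, and of Nt5e in 4F, at 0.56 (adjusted p = 0.045). The Eng call in 3F+IL6 was lost without ES 2 (0.24), in a fit of those 4 samples alone (adjusted p = 0.055) and with array weights (adjusted p = 0.11), and the Nt5e call in 4F without any 1 library of ES, 4F or MEF. Both comparisons share the ES libraries.

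When the ES level was taken off both the clone and the MEF values, Thy1 kept 1.77% and 2.73% in 3F+IL6 and 1.87% and 1.76% in 4F. Cd44 kept 0.945% and 2.10%, and 0.785% and 0.803%. Pdgfra kept 22.5% and 42.3% in 3F+IL6 and to 20.2% and 14.7% in 4F. Ly6a stayed near or above the MEF level, at 138% and 238% in 3F+IL6 and at 91.2% and 108% in 4F. For Eng and Nt5e no such share could be given, since MEF was not above ES by more than the spread of the replicates.

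Between the 2 kinds of clone no member was called: 0 were higher and 0 lower in 3F+IL6 than in 4F by limma, where 0.773% of all genes were higher and 0.568% lower. At an unadjusted p under 0.05, 4 members were higher, as were 14.5% of all genes, and 0 were lower, as were 9.69%. The widest difference was that of Ly6a, at 0.75 (95% interval 0.20 to 1.30, adjusted p = 0.13), followed by Cd44 at 0.60 (0.02 to 1.18, adjusted p = 0.2). Nt5e differed by 0.55 (0.07 to 1.04), Cdh11 by 0.54 (-0.04 to 1.12), Pdgfra by 0.44 (0.02 to 0.85), Anxa1 by 0.41 (-0.09 to 0.91) and Thy1 by 0.22 (-0.13 to 0.56). Pdgfrb, at 0.001 (-0.25 to 0.25), had the interval nearest to 0, and Eng was at -0.20 (-0.42 to 0.03). The sign was positive in 8 of 9 members, as it was in 56.2% of all genes. These intervals do not show that the kinds are alike. The kinds also differed in the library class described below, which this fit cannot tell apart from the kind of clone.

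**Figure D3:**
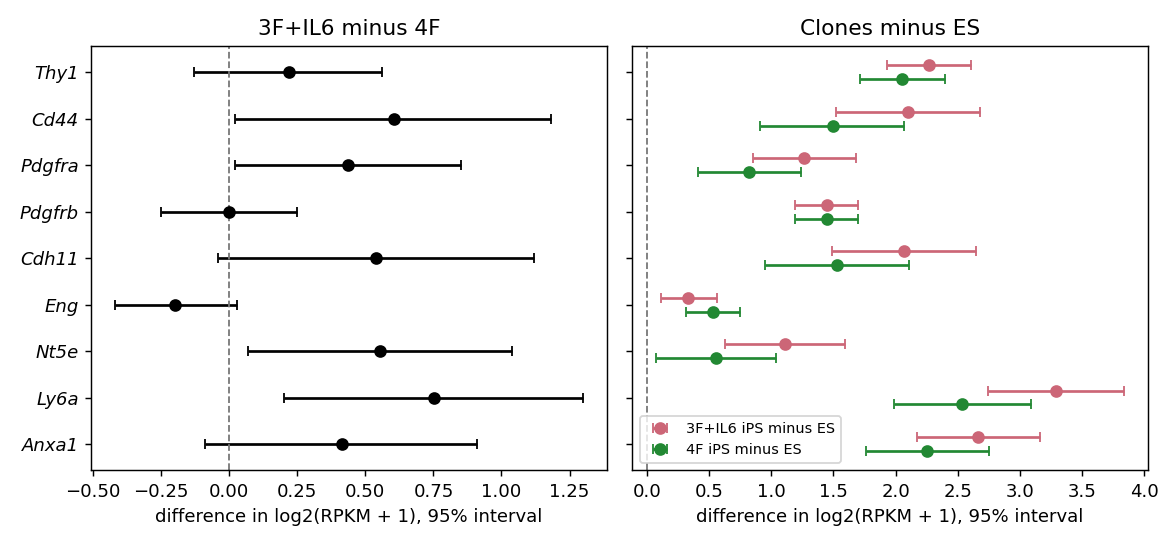
Differences in log2(RPKM + 1) of the 9 members from the limma fit, as points with 95% intervals, between 3F+IL6 and 4F (left) and between each kind of clone and ES (right). On the left the points run from -0.20 for Eng to 0.75 for Ly6a, and on the right every interval lies above 0.

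The spread between the 3F+IL6 clones was wider than that between the 4F clones for 8 of the 9 members. It was also wider over all genes tested, with a median absolute log2 difference between clones of 0.182 in 3F+IL6 and 0.102 in 4F. Clone 2 was above clone 1 in 8 of 9, with ratios of 2.10 for Cd44, 2.03 for Cdh11, 1.80 for Nt5e, 1.70 for Anxa1, 1.65 for Ly6a, 1.59 for Pdgfra, 1.45 for Thy1 and 1.23 for Pdgfrb. Only Eng was below, at 0.93. The median ratio of the members was 1.65, beside 1.04 for 8691 genes with a mean of at least 5 RPKM, of which 60.0% were higher in clone 2. The members were not held to that floor, which Pdgfra and Nt5e did not reach. In 4F the members' median ratio was 0.95, in ES 1.05 and in MEF 1.02. Without 3F+IL6 clone 1, 7 members were called higher in 3F+IL6 than in 4F, in a fit where 23.7% of all genes were called higher and 12.7% lower. Without clone 2, 0 members were called, where 3.32% of all genes were higher and 3.01% lower. In those fits the lone clone is assumed to vary like the other groups.

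The surface markers were set beside 15 fibroblast genes whose products are not on the surface, of which 14 had a MEF mean of at least 1 RPKM. The median share of MEF over those 14 came to 7.81% and 12% with 3F+IL6 against 7.69% and 6.58% with 4F, close to the medians of the surface markers in the same clones. In ES it was 0.127% and 0.101%, below the surface markers' 1.36% and 1.5%. The difference between the sets was not tested. Against MEF, 12 of the 14 tested were lower in each kind of clone, among them Vim, Lox, Twist1 and Col1a1. The 2 higher in 3F+IL6 were the matrix proteoglycan genes Dcn and Lum, named after their values were seen: Dcn was at 129% and 195% of MEF in 3F+IL6 and at 90.5% and 71.7% in 4F, and Lum at 141% and 268% and at 88.9% and 78.5%. These 2, like Ly6a, were near the MEF level in 4F, above it in 3F+IL6 and lower in ES. The 3F+IL6 clone 2 was higher than clone 1 in 12 of 13 of these genes with a mean of at least 5 RPKM, with a median ratio of 1.48.

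**Figure D4:**
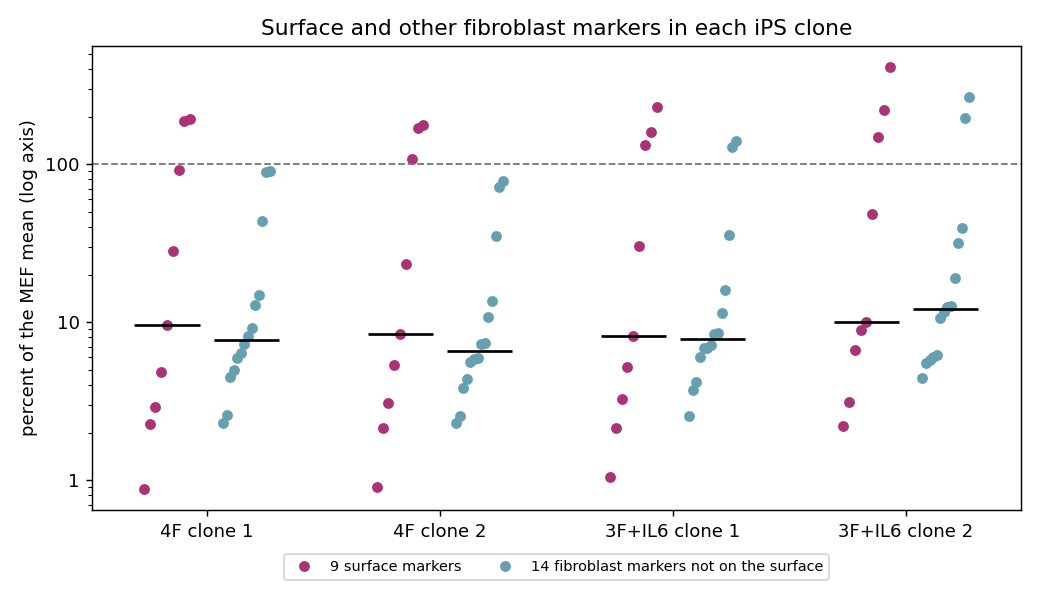
Percent of the MEF mean (log axis) in each iPS clone for the 9 surface markers and for 14 fibroblast markers not on the surface. Points are genes and bars are medians, which lie between 6.58% and 12% in both sets, while 2 or 3 genes of each set lie near or above 100%.

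Of 18 other surface proteins of mesenchymal cells, all were tested, and 14 were lower and 4 higher than MEF in 3F+IL6, and 13 and 4 in 4F. The integrin genes Itgb1 and Itga5 had log2 differences of -3.36 and -3.72 in 3F+IL6, and Tnfrsf12a, the TWEAK receptor, one of -4.09. Of 10 surface proteins of pluripotent cells, 8 were higher and 2 lower in each kind of clone, with Epcam at 7.11 and Cldn6 at 6.61 in 3F+IL6. None of the 18 and 2 of the 10 were called between the kinds of clone, both lower in 3F+IL6: Kit (-0.61) and Cd9 (-0.32), named after their values were seen. The summed level of 7 markers of pericytes and smooth muscle was 5797 to 5845 RPKM in MEF, 48.3 to 60.5 in the clones and 140 to 144 in ES. Most of the MEF sum came from Acta2 at 3531 ± 44.4 and Tagln at 2123 ± 10.1 (SD, n = 2). Of the 6 tested, 6 were lower than MEF in 3F+IL6, and 5 in 4F with Des not called. Rgs5 and Des are named after their values were seen. Rgs5 was at 0.245 ± 0.0396 RPKM in MEF. Des was at 12.6 ± 0.096 in MEF, 12.9 ± 0.0356 in ES, 11.9 ± 1.00 in 4F and 6.87 ± 0.577 in 3F+IL6. Pdgfrb and Thy1 also mark pericytes or smooth muscle cells, and the part of this list in their levels was not tested.

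Over the 8 libraries, the genes whose log2 levels followed a member most closely were given by Pearson's r, as a description over 8 points in 4 groups of 2. Thy1 was followed most closely by Pde4dip (0.9997) and Mast4 (0.9995), Cd44 by Csf1 (0.9997) and Itpripl2 (0.9995), and Cdh11 by Antxr1 (0.9996) and Nod1 (0.9995). Pdgfrb was nearest to Grb14 (0.9993), Anxa1 to Lrrc32 and Tm4sf1 (0.9993 each) and Pdgfra to Oaf (0.9968) and Hgf (0.9966). For a gene high in MEF alone, the distance between MEF and the rest makes up most of such an r. The 3 members with another order had lower values: Ly6a with Mmp3 (0.9939) and Jph1 (0.9909), Nt5e with Car14 (0.9929) and Bckdk (0.9875), and Eng with Dusp2 (0.9899) and Lnx1 (0.9889).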

How the data were processed

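Poly-A RNA of 8 mouse cultures was sequenced as 50 bp reads from TruSeq libraries begun with 500 ng of total RNA, per the labels' protocols. The genome build was mm10, per the submitters' processing notes, while the sources used here do not give the aligner, counter, gene models or use of strand. The deposited tables hold 1 value per symbol and no unit. These deposited values were taken for RPKM, since low values times the transcript length fall on whole steps (65.9% to 73.8% whole within 0.1 read), so depths are estimates and no count test was run.

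log2(RPKM + 1) was computed, genes with at least 1 RPKM in at least 2 samples were kept (13200, all 9 members included), and all 8 samples entered 1 model of 4 groups in limma 3.58.1 (R 4.3.3) with trended variance. For each of 6 comparisons, two-sided p-values of all genes were adjusted after Benjamini and Hochberg, with a threshold of 0.05. "Called", "higher" and "lower" rest on it, and log2 differences understate the change of low genes. The fit was tested on simulated data. Percent of MEF is the RPKM of a library over the MEF mean. Gene positions are those of GENCODE M21 on mm10.

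The members and all lists were chosen with earlier results of these data known. All members are named, and from each other list at most 4 genes with the smallest p in the comparison described, apart from those said to be named after their values were seen. For each member the 2 genes most like it were found. The lists of blood cell and epithelial markers had 2 and 5 genes tested, and 2 of 2 and 4 of 5 were higher than MEF in both kinds of clone. Alternatives were other pseudocounts, filters, scalings and fits, each library left out, and 3 settings added after seeing the data: a term for library class, BALB/c samples only, and each clone left out of the percentages.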

Additional observations from a re-analysis of the deposited data

How the results depend on the processing

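In 42 of 54 results, each 1 member in 1 comparison, no alternative changed the call, and no called difference reversed in any of the 987 values computed, of which 28 lost and 12 gained a call. Members higher in 4F than in MEF numbered 1 and not 2 with no filter, with a mean of at least 5 RPKM required, under quantile normalization, with a term for library class and in BALB/c samples only, and 1 to 2 with each library left out. In each of these Nt5e was the one lost, or was not tested under the stricter filter. Members higher in ES than in MEF numbered 1 and not 0 in a fit of the 4 samples compared and with array weights, and 0 to 1 with each library left out, Eng being the gene. Members higher in 3F+IL6 than in 4F numbered 0 to 7 with each library left out, the 7 coming from the fit without 3F+IL6 clone 1, in which 23.7% of all genes were called higher. With the ES level subtracted, the median percent of MEF was 6.15 and not 9.03 in 3F+IL6, and 4.18 and not 9.0 in 4F, over 7 members and not 9. The cause of the other changes was not tested.

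The library class term split the libraries at 200 RPKM of summed Rn45s, Rpph1 and Rmrp, which read 89.8 and 704 in ES, 64.9 and 60.8 in 3F+IL6, 610 and 596 in 4F, and 46.5 and 268 in MEF. Both 3F+IL6 libraries were thus low and both 4F libraries high, while ES and MEF held both classes. Without the term, kind of clone and library class cannot be told apart. With it, Ly6a in 3F+IL6 against MEF was 0.67 and Eng against ES 0.30, neither called. With a replicate block, the counts of members called were the same in every comparison except 4F against ES, where 8 and not 9 were higher, Nt5e being lost (adjusted p = 0.055). The replicate numbers only name the clones and cultures: correlations of same-numbered deviations ran from -0.055 to 0.214. Depth limits Cd44, Ly6a and Pdgfrb in ES, where the lower library of each gave an estimated 21, 35 and 38 reads.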

Other observations

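Among the other mesenchymal surface genes, 4 were higher in 3F+IL6 than in MEF, and they are named after their values were seen. The limma call of Mme lay at the threshold, with a log2 difference of 0.42 (adjusted p = 0.05 after rounding). Icam1, an adhesion molecule for leukocytes, was at 43.3 ± 12.7 RPKM in 3F+IL6, 65.6 ± 6.50 in 4F and 48.9 ± 0.589 in ES, against 2.20 ± 0.233 in MEF (SD, n = 2). Cd34, a sialomucin of progenitor and endothelial cells, was at 9.46 ± 2.60 in 3F+IL6, 5.14 ± 0.600 in 4F, 0.355 ± 0.0735 in ES and 2.40 ± 0.201 in MEF. Its order of groups was that of Ly6a only in part, with both kinds of clone above MEF and ES lowest. The peptidases Mme (CD10) and Dpp4 (CD26) were highest in ES: Mme was at 41.3 ± 0.215 RPKM there, 5.65 ± 1.56 in 3F+IL6, 5.91 ± 0.360 in 4F and 3.92 ± 0.717 in MEF. Dpp4 was at 9.12 ± 0.572 in ES, 0.866 ± 0.143 in 3F+IL6, 0.733 ± 0.0776 in 4F and 0.192 ± 0.0107 in MEF. For these 2 the ES value comes from another strain.

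Of the 10 surface genes of pluripotent cells, the 2 that were lower than MEF in both kinds of clone were Cd24a and Fut4, named after their values were seen. Cd24a was at 97.3 ± 1.04 RPKM in MEF, 30.04 ± 14 in 3F+IL6, 22.3 ± 0.0801 in 4F and 2.88 ± 0.127 in ES. Epcam was at 176 ± 21.7 in 3F+IL6 and 164 ± 3.57 in 4F, above the 39.2 ± 2.03 of ES, with 0.281 ± 0.128 in MEF (SD, n = 2).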
